A study of Mus musculus with 35 samples.

Results

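Double positive (DP) thymocytes, which carry both CD4 and CD8, were compared between 60-week-old and 10-week-old wild-type mice by bulk RNA-seq. Chosen by their labels, the 5 aged DP and 5 young DP libraries are 10 of the 35 in the series, which also holds double negative (DN) cells, lacking both coreceptors, and mice with floxed Mettl3. A further group of 5, labelled WT DP, is not wild type: its 10-week donors were Mettl3flox/wt; Cd4Cre, with 1 floxed allele and a Cre transgene under the Cd4 promoter. Wild-type aged DN and young DN cells, with 5 libraries each, served to compare the age effect between stages. All cells were flow-sorted from thymus. Whether replicates are separate animals is not stated, nor are pooling, sex or sort markers beyond CD4 and CD8, and all p-values below rest on how far these libraries differ among themselves, which may be technical.

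The DP stage follows the DN stage in T cell development. DP cells rearrange the gene of the T cell receptor alpha chain with the recombinase made by Rag1 and Rag2, and are then tested for recognition of self peptide on MHC molecules of the thymic epithelium. Most die there, and the rest become CD4 or CD8 single positive cells. With age the thymus shrinks, a process called involution, in which epithelial space is lost, fat accumulates and B cells and plasma cells take up a larger part of the organ.

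The libraries carried the markers of their sort. Cd4 averaged 1825 ± 68.1 CPM in young DP and 1800 ± 151 CPM in aged DP, against 29.4 and 6.92 CPM in young and aged DN (CPM are counts scaled to a common library size and adjusted for composition, and errors are SD with n = 5 throughout). Cd8a averaged 2636 and 2350 CPM in young and aged DP, and the DN marker Il2ra 14.1 and 16.5 CPM against 391 CPM in aged DN. None of Cd4 (adjusted p = 0.950), Cd8a (0.231), Cd8b1 (0.561) and Il2ra (0.774) was called between the ages in edgeR's quasi-likelihood test. The granulocyte and adipocyte marker lists had no member with enough counts to be tested, and summed to at most 3.06 and 5.17 CPM in any of the 10 libraries.

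Total counts ran from 13933324 to 16174257 in aged DP and from 13443375 to 15903839 in young DP. One library stood apart. In a principal component analysis of the 500 most variable genes the first component (51.0% of the variance) placed aged DP 5 at 50.7, the other aged libraries at 0.0 to 7.74 and the young ones at -15.4 to -10.1. The second component (15.1%) placed aged DP 1 to 4 at 10.3 to 15.97, all young libraries at -8.54 to -6.04 and aged DP 5 at -11.4. Aged DP 1 was the next highest aged library in the class II, macrophage and gamma delta T cell marker sums, and results are also given without both. The 50 most abundant genes took 9.17% ± 0.242 of counts in aged and 9.64% ± 0.119 in young DP (exact 2-sided permutation p = 0.0159, adjusted over 3 library measures 0.0476). With 1 library left out, so few assignments remain that only full separation of the groups can pass this test. Aged DP 1 (9.51%) lay above young DP 3 (9.47%), the sole overlap. The call therefore held without either of them and had to end without any other library (adjusted p = 0.0952 each), which does not show dependence on those libraries.

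The comparison asks what differs in DP thymocytes between 10 and 60 weeks. Of 13059 genes tested, 123 (0.942%) passed at an adjusted p under 0.05. In aged DP 81 of them were higher (0.62%) and 42 lower (0.322%). All counts of called list members below are to be read beside these shares. Genes of B cells, plasma cells and class II antigen presentation made up most of the 15 largest named rises, with the bone morphogenetic protein receptor gene Bmpr1a among them. The largest named falls were in genes at low levels, among them the RNA-binding protein gene Igf2bp3, and the most abundant genes that fell did so by less than 2-fold. At least 2-fold were 47 of the rises and 18 of the falls. The groups did not overlap in 116 of the called genes, and in 398 (3.05%) of all genes tested, 197 with aged DP higher (1.51%) and 201 with aged DP lower (1.54%).

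The number of calls depended on single libraries. Leaving out young DP 4 gave 58, young DP 5 gave 62, young DP 3 gave 64 and young DP 2 gave 73. Leaving out young DP 1 gave 46 rises. Of the 123 genes, 50 were called whichever library was left out, 28 higher and 22 lower. Without aged DP 1 and aged DP 5, 93 of 13444 genes (0.692%) were called. Of the 123, 67 were among them, and 38 rises and 18 falls lost their call. A fit over all 35 libraries called 30 genes, 24 of them shared, and a fit against the mean of both 10-week DP groups called 190 of 13530 (1.4%).

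Igf2bp3 encodes an RNA-binding protein of fetal and tumour cells that binds N6-methyladenosine (m6A) in mRNA (chromosome 6, 49203821 to 49345105, minus strand; all gene positions are those of the C57BL/6NJ strain assembly). Young DP libraries 1 to 5 held 27.6, 29.8, 25.1, 23.8 and 26.2 CPM and aged DP libraries 1 to 5 7.53, 4.19, 3.49, 3.63 and 2.98 CPM. Every aged library was below every young one, and aged DP 1 was the highest of its group. The gene fell by 2.60 on the log2 scale (SE 0.20, adjusted p = 2.47e-06). The WT DP libraries, also of 10 weeks, ranged from 2.73 to 4.75 CPM, and no difference from aged DP passed the test (log2 0.12, adjusted p = 0.880). DN cells averaged 30.8 CPM in young and 3.08 CPM in aged mice.

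Igf2bp3 was the one gene called of 15 tested m6A writers, erasers and readers, whose median log2 difference was -0.11. Over all tested genes 0.322% were called lower. Of the 15, 13 lay below 0. At an unadjusted p under 0.05, 3 were lower and 0 higher, against 5.24% and 6.54% of all tested genes. Mettl3, the catalytic subunit of the writer, averaged 52.4 ± 4.84 CPM in the young and 50.3 ± 5.19 CPM in the aged group (log2 fold change -0.05, adjusted p = 0.890). Of 14 genes listed for the fetal programme and the let-7 miRNAs, 4 had enough counts and Igf2bp3 alone was called. Plag1, a zinc finger transcription factor of fetal tissues outside that list, fell. It averaged 11.1 ± 2.51 CPM in the young and 5.01 ± 0.792 CPM in the aged group (log2 fold change -1.13, adjusted p = 0.00839), with 3.74 CPM in WT DP.

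Of 18 tested genes of Wnt signalling, which acts through Frizzled receptors and the factors Tcf7 and Lef1, the receptor gene Fzd10 was the one called, and the median was -0.09. Fzd10 (chromosome 5, 137705851 to 137709088, plus strand) was at 7.55, 8.55, 12.3, 7.70 and 9.87 CPM in young DP and 0.671, 3.29, 1.98, 1.56 and 0.808 CPM in aged DP. The groups did not overlap (log2 -2.47, SE 0.33, adjusted p = 0.000943). Ptk7, a kinase-dead coreceptor of Wnt signalling, averaged 25.3 ± 2.73 CPM in the young and 12.3 ± 4.14 CPM in the aged group (log2 fold change -1.04, adjusted p = 0.0134). Ankrd6, an adaptor in Wnt signalling chosen after its values were seen, averaged 116 ± 13.7 CPM in the young and 75.3 ± 12.6 CPM in the aged group (log2 fold change -0.62, adjusted p = 0.0116). Ptk7 and Ankrd6 are not on the list. The factors Lef1 (log2 -0.21, adjusted p = 0.168) and Tcf7 (-0.14, 0.448) did not pass. One ligand gene moved the other way. Wnt8b, not on the list and chosen after its values were seen, averaged 12.1 ± 1.54 CPM in the young and 23.5 ± 3.04 CPM in the aged group (log2 fold change 0.96, adjusted p = 0.000775).

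Cdc42bpa encodes a kinase that acts on myosin downstream of the GTPase Cdc42 (chromosome 1, 192386542 to 192603400, plus strand). It stood at 20.7, 17.4, 16.2, 21.8 and 18.5 CPM in young DP and at 2.16, 4.34, 5.81, 5.05 and 2.24 CPM in aged DP. All aged libraries were far below all young ones (log2 -2.27, SE 0.23, adjusted p = 5.61e-05). Rtkn averaged 5.56 ± 1.19 CPM in the young and 1.08 ± 0.386 CPM in the aged group (log2 fold change -2.35, adjusted p = 0.000315). Atp9a encodes a lipid flippase (chromosome 2, 179560583 to 179711132, minus strand), and its values were 13.9, 15.5, 17.9, 16.6 and 16.5 CPM in young DP and 4.55, 3.96, 4.31, 4.41 and 3.98 CPM in aged DP. The aged libraries lay within 1 CPM of each other and below every young one (log2 -1.92, SE 0.13, adjusted p = 1.21e-06). Wscd1 averaged 10.9 ± 1.38 CPM in the young and 2.16 ± 1.19 CPM in the aged group (log2 fold change -2.34, adjusted p = 0.000914).

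Hspg2, which encodes the proteoglycan perlecan (chromosome 4, 145106535 to 145219771, plus strand), was at 32.5, 31.9, 54.1, 56.4 and 60.8 CPM in young DP and at 2.53, 11.9, 12.9, 14.6 and 18.4 CPM in aged DP. Aged DP 1 was the lowest, young DP 1 and 2 were well below the other young libraries, and the groups did not overlap (log2 -1.95, SE 0.33, adjusted p = 0.00714). Fbln2, a matrix fibulin, averaged 33.9 ± 3.84 CPM in the young and 16.9 ± 3.08 CPM in the aged group (log2 fold change -1.01, adjusted p = 0.000464). The metalloprotease gene Adam12 averaged 87.96 ± 16.01 CPM in the young and 46.7 ± 9.39 CPM in the aged group (log2 fold change -0.91, adjusted p = 0.00285). Both were chosen after their values were seen. Igfbp4, which binds insulin-like growth factors, averaged 4.72 ± 1.47 CPM in the young and 1.75 ± 0.319 CPM in the aged group (log2 fold change -1.43, adjusted p = 0.0182), a call that ended without young DP 2 (0.0672), young DP 3 (0.0534) or young DP 4 (0.0582).

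Padi4 converts arginine in histones and other proteins to citrulline (chromosome 4, 148765385 to 148798067, minus strand). Young DP libraries held 27.96, 28.4, 18.9, 19.8 and 24.7 CPM and aged DP libraries 7.60, 9.27, 7.45, 10.4 and 7.33 CPM. Every aged library was below every young one (log2 -1.50, SE 0.15, adjusted p = 4.89e-05). Its WT DP libraries, at 15.4 to 23.9 CPM, also lay above all aged ones (log2 aged over WT -1.23, adjusted p = 0.00307). Padi2 (log2 0.05, adjusted p = 0.862) and Padi3 (-0.27, 0.519) did not pass.

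Smaller or less stable falls completed the named set. Kit, the receptor for stem cell factor that marks early DN cells, was at 6.73, 4.20, 7.08, 6.97 and 6.65 CPM in young DP and at 2.01, 2.69, 3.08, 1.92 and 4.04 CPM in aged DP (log2 -1.19, adjusted p = 0.0303). Young DP 2 and aged DP 5 came close without overlap, and the call ended without any 1 of aged DP 1 to 4, young DP 1 or young DP 3 to 5 (adjusted p = 0.0502 to 0.0946). Fam83g, known to bind SMAD1, changed by -1.58 on the log2 scale (adjusted p = 0.0291) and lost its call without any 1 of aged DP 1 to 4 or young DP 2 to 5 (0.0512 to 0.0930). Cacng4, an auxiliary subunit of glutamate receptors, changed by -1.07 (0.0317) and lost its call without aged DP 1, aged DP 4 or any young library (0.0610 to 0.109), and without aged DP 1 and 5 together (0.0743). The zinc finger gene Zfp467 changed by -1.06 (0.00714) and was called whichever library was left out. The fit over all 35 libraries ended the calls of Kit (0.156), Fam83g (0.124), Cacng4 (0.825), Zfp467 (0.432), Igfbp4 (0.192), Plag1 (0.995), Ptk7 (0.328), Fzd10 (0.291), Wscd1 (0.0994) and Hspg2 (0.0917).

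**Figure D1:**
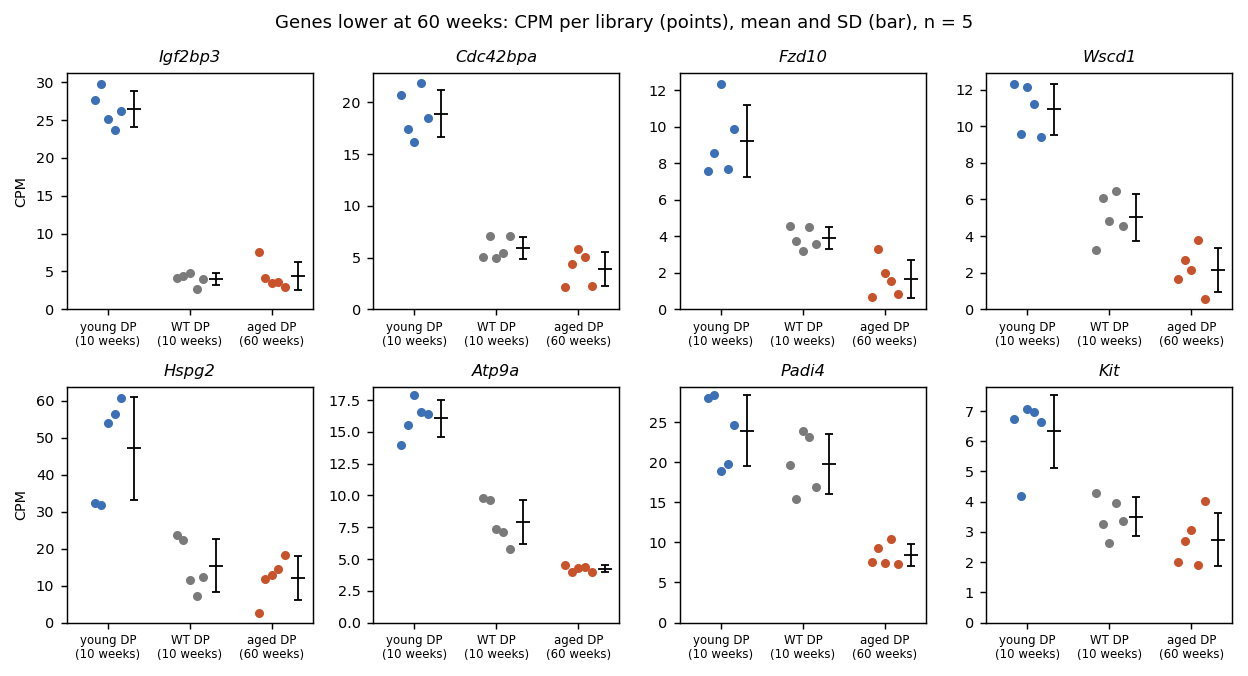
CPM per library of 8 genes that were lower in aged DP than in young DP. Points are libraries (5 each of young DP, WT DP and aged DP), and the bar beside them is the mean with its SD. WT DP libraries of Igf2bp3 lie at 2.73 to 4.75 CPM, near the aged ones, while those of Padi4 lie at 15.4 to 23.9 CPM, above all aged ones.

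The abundant genes called lower fell by less than 2-fold. Rag1, a subunit of the V(D)J recombinase (chromosome 2, 107014169 to 107025388, minus strand), was at 8681, 7673, 9158, 9299 and 10078 CPM in young DP and at 7831, 7835, 6644, 7006 and 6579 CPM in aged DP. The groups overlapped, because young DP 2 was below aged DP 1 and 2 (log2 -0.32, SE 0.07, adjusted p = 0.0496). The call ended without aged DP 3 (0.109), aged DP 4 (0.115), aged DP 5 (0.101), young DP 1 (0.0606), young DP 3 (0.0989), young DP 4 (0.128) or young DP 5 (0.121) and without aged DP 1 and 5 together (0.123). WT DP, at 6198 CPM, was below both. Its partner Rag2 (log2 -0.22, adjusted p = 0.143) and Dntt, which adds nucleotides at the joints (-0.15, 0.454), did not pass, and of 16 tested genes of recombination and end joining Rag1 alone was called.

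Ets2, a transcription factor of the ETS family, was at 1088, 1163, 1184, 1172 and 1171 CPM in young DP and at 995, 942, 971, 958 and 837 CPM in aged DP. All aged libraries were below all young ones (log2 -0.29, adjusted p = 0.0181), and the call ended without young DP 3 (0.0512), young DP 4 (0.0557) or young DP 5 (0.0572). Ets2 and Rag1 were the 2 called of 18 tested DP stage markers, where 0.322% of all tested genes were called lower. Of the 18 markers, 14 lay below 0, with a median of -0.09. At an unadjusted p under 0.05, 5 were lower and 0 higher, against 5.24% lower and 6.54% higher over all tested genes. DESeq2 called 3 of them, all lower. The list summed to 20544 to 23617 CPM in aged DP and 23549 to 26900 CPM in young DP, with a small overlap. In WT DP, whose donors were as young as those of young DP, the sum was 20891 to 23239 CPM. WT DP thus lay within the aged range and below all young libraries. Differences in this sum were not tested. Rltpr, a scaffold of CD28 costimulation (log2 -0.29, adjusted p = 0.0178), Kdm6b, a histone H3 lysine demethylase (-0.31, 0.0178), Uspl1, a SUMO protease (-0.27, 0.0426), and Prr12 (-0.27, 0.0496) were the other abundant genes called lower. The call of Rltpr ended without aged DP 4 (0.0549), and that of Kdm6b without young DP 3 (0.0526) or young DP 4 (0.0607). Uspl1 lost its call without aged DP 1, aged DP 3 to 5 or young DP 2 to 5 (0.0695 to 0.106), and Prr12 without aged DP 1 to 4 or any young library (0.0595 to 0.124). Without aged DP 1 and 5 together none of Ets2 (0.0780), Rltpr (0.113), Kdm6b (0.0743), Uspl1 (0.193) and Prr12 (0.0662) was called.

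The regulators of transcription Foxp4, Smad3 and Rara, at intermediate levels, fell. Foxp4, a forkhead factor, was at 143, 152, 142, 154 and 142 CPM in young DP and at 112, 104, 106, 106 and 105 CPM in aged DP (log2 -0.45, SE 0.06, adjusted p = 0.000464). No aged library reached a young one. Smad3, which carries TGF-beta signals to the nucleus, averaged 125 ± 7.66 CPM in the young and 97.1 ± 5.85 CPM in the aged group (log2 fold change -0.36, adjusted p = 0.0134). The retinoic acid receptor gene Rara averaged 107 ± 7.88 CPM in the young and 82.7 ± 3.61 CPM in the aged group (log2 fold change -0.37, adjusted p = 0.0134). Foxp4 and Rara were chosen after their values were seen. All 3 calls held whichever library was left out, Rara lost its call without aged DP 1 and 5 together (0.0642), and the fit over all 35 libraries called none of them (Foxp4 0.257, Smad3 0.802, Rara 1.00).

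Bmpr1a rose from near absence. It encodes a type I receptor for bone morphogenetic proteins (BMP), secreted ligands whose receptors phosphorylate SMAD1 and SMAD5 (chromosome 14, 28826624 to 28927265, minus strand). It was at 0.272, 0.700, 0.561, 0.531 and 0.269 CPM in young DP and at 11.3, 13.2, 20.02, 16.99 and 18.5 CPM in aged DP. Every aged library was more than 10 CPM above every young one, and aged DP 5 was not apart from the rest. The log2 fold change was 5.10 (SE 0.27, adjusted p = 3.52e-08), and the highest adjusted p with 1 library left out was 9.48e-07. WT DP averaged 0.402 CPM, 5.28 below aged DP on the log2 scale (adjusted p = 6.40e-07). Aged DN ranged from 6.03 to 38.2 CPM against a mean of 0.754 CPM in young DN, and the difference between the DP and DN age effects did not pass the test (log2 0.59, adjusted p = 0.607).

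Of 21 tested genes of the BMP and TGF-beta pathways, Bmpr1a was the 1 called higher and Smad3 the 1 called lower, and the median was 0.01. At an unadjusted p under 0.05, 1 was higher and 4 were lower, against 6.54% and 5.24% of all tested genes. DESeq2 called 1 higher and 3 lower, where over all genes it called 185 higher and 132 lower. Among receptors, Bmpr2, which pairs with Bmpr1a (log2 -0.53, adjusted p = 0.0939), Tgfbr1 (-0.14, 0.528), Tgfbr2 (0.14, 0.773) and Tgfbr3 (-0.35, 0.0847) did not pass. Neither did Id1 (-0.26, 0.83), Id2 (0.04, 0.970) and Id3 (0.07, 0.884), which BMP signals induce in many cells, nor did the signal carriers Smad1 (0.14, 0.592) and Smad5 (0.13, 0.465).

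Nav2, a neuron navigator protein (chromosome 7, 51821023 to 52574898, plus strand), was at 107, 136, 137, 113 and 137 CPM in young DP and at 308, 477, 264, 334 and 275 CPM in aged DP. All aged libraries were above all young ones (log2 1.40, SE 0.13, adjusted p = 4.22e-05). WT DP ranged from 106 to 231 CPM, and the difference from it did not pass (log2 0.88, adjusted p = 0.0797). Gpc1, the cell surface heparan sulphate proteoglycan glypican 1 (chromosome 1, 98031004 to 98060111, plus strand), was at 25.4, 28.8, 20.2, 23.8 and 15.9 CPM in young DP and at 50.1, 46.97, 51.8, 55.4 and 40.8 CPM in aged DP. The groups did not overlap (log2 1.11, SE 0.13, adjusted p = 0.000315), and against WT DP, at 28.4 CPM, the rise passed as well (log2 0.79, adjusted p = 0.0105). Cttn, the actin-binding protein cortactin, averaged 4.14 ± 0.491 CPM in the young and 12.2 ± 1.46 CPM in the aged group (log2 fold change 1.57, adjusted p = 4.51e-05), but WT DP stood at 12.1 CPM (log2 aged over WT 0.02, adjusted p = 0.981). Gpc1 and Cttn were chosen after their values were seen.

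Pdk1, the kinase that restrains pyruvate dehydrogenase, was at 289, 307, 307, 269.8 and 294 CPM in young DP and at 375, 417, 373, 426 and 381 CPM in aged DP. The rise was small and without overlap (log2 0.43, SE 0.06, adjusted p = 0.00149). It was the 1 gene called of 15 tested genes of glycolysis and its control, with a median of 0.09. Prep, a peptidase that cuts after proline, averaged 201 ± 13.04 CPM in the young and 270.2 ± 28.2 CPM in the aged group (log2 fold change 0.44, adjusted p = 0.00831), with 268 CPM in WT DP. Cdkn2c, an inhibitor of the kinases CDK4 and CDK6, averaged 113 ± 24.8 CPM in the young and 166 ± 10.5 CPM in the aged group (log2 fold change 0.56, adjusted p = 0.0291). That call ended without aged DP 1 (0.0645), aged DP 4 (0.0668), young DP 3 (0.0584), young DP 4 (0.0959) or young DP 5 (0.0812) and without aged DP 1 and 5 together (0.121). It was the 1 called of 14 tested p53 targets and senescence genes, whose median was -0.06. The fit over all 35 libraries did not call Nav2 (0.640), Pdk1 (0.313), Prep (0.194), Cdkn2c (0.640) or Wnt8b (0.277).

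**Figure D2:**
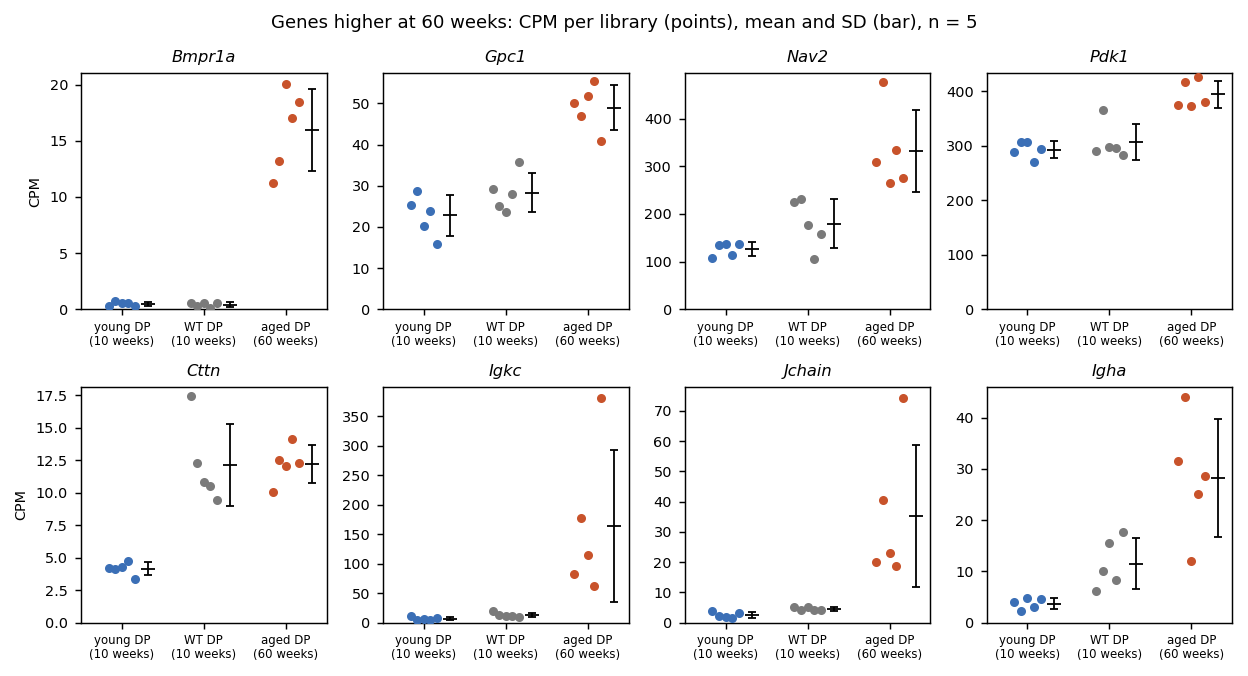
CPM per library of 8 genes that were higher in aged DP than in young DP. Points are libraries (5 each of young DP, WT DP and aged DP), and the bar beside them is the mean with its SD. Bmpr1a is at 11.3 to 20.02 CPM in the aged libraries and under 1 CPM in both 10-week groups, whereas Cttn averages 12.1 CPM in WT DP and 12.2 CPM in aged DP.

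The antibody genes Igkc, Igha, Ighg2c and Ighg2b, which plasma cells express, and their partner Jchain were called higher. Igkc, the constant region of the kappa light chain (chromosome 6, 73027106 to 73027637, plus strand), was at 10.5, 5.05, 6.10, 4.51 and 6.92 CPM in young DP and at 83.1, 178, 114, 61.2 and 381 CPM in aged DP. The lowest aged library was over 5 times the highest young one, and aged DP 5 was the highest (log2 4.64, SE 0.46, adjusted p = 4.51e-05). Jchain, which joins IgA and IgM into polymers, was at 3.88, 2.18, 1.75, 1.59 and 3.22 CPM in young DP and at 19.97, 40.5, 23.1, 18.7 and 74.4 CPM in aged DP (log2 3.82, adjusted p = 5.65e-05). Igha, the IgA heavy chain, averaged 3.71 ± 1.01 CPM in the young and 28.3 ± 11.5 CPM in the aged group (log2 fold change 2.93, adjusted p = 4.22e-05). Ighg2c had a log2 fold change of 5.31 (adjusted p = 0.000931) and Ighg2b of 3.77 (0.00192). Reads of antibody genes can be shared between near copies, so single members are uncertain. Of 10 tested plasma cell genes 4 were called, all higher, where 0.62% of all tested genes were called higher. Without aged DP 1 and 5, 4 were called. Xbp1 (log2 -0.10, adjusted p = 0.645) and Prdm1 (0.40, 0.720), which plasma cells share with other cells, did not pass. In bulk libraries, more or fewer cells of a type and more or less RNA per cell cannot be told apart.

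The called B cell genes were higher in every aged library than in any young one. Cd22, Siglecg and Ms4a1 were far higher in aged DP 5 than in the other aged libraries. Cd22, an inhibitory coreceptor of B cells, was at 0.272, 0, 0.140, 0.0664 and 0.202 CPM in young DP and at 2.91, 3.37, 1.71, 2.56 and 100.4 CPM in aged DP. Aged DP 5 was far above the rest, and the other aged libraries were still above all young ones (log2 7.27, SE 1.46, adjusted p = 0.0247, and 0.000165 without aged DP 5). Ms4a1, which encodes CD20 (log2 5.71, adjusted p = 0.0225), Siglecg, an inhibitory lectin (5.71, 0.0316), and Blk, a kinase of B cells and some gamma delta T cells (4.37, 0.0122), were called too. So were Pik3ap1, an adaptor of the B cell receptor (3.42, 0.0293), Scd1, a fatty acid desaturase (4.72, 0.0465), and Cybb, a subunit of the phagocyte oxidase (3.45, 0.0437). The proteases Ctsh (4.23, 0.0281) and Napsa (4.19, 0.0246) and Fgl2, a fibrinogen-like protein (4.04, 0.00700), were called as well. Blk, Pik3ap1, Scd1, Cybb, Ctsh, Napsa and Fgl2 are not on the B cell list, and which cells their RNA came from was not tested.

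Most of these calls needed all 5 young libraries. Those of Cd22 (0.0605 to 0.0930), Siglecg (0.0534 to 0.106), Ms4a1 (0.0512 to 0.0857), Scd1 (0.0847 to 0.136) and Ctsh (0.0512 to 0.0961) ended without any 1 young library, with the adjusted p in brackets. Napsa lost its call without any young library but young DP 2 (0.0605 to 0.0840), and Cybb (0.0501 to 0.122) and Pik3ap1 (0.0501 to 0.0942) lost theirs without aged DP 1 or any young library. Blk and Fgl2 were called whichever library was left out. Without aged DP 1 and 5 together, Cd22 (0.000806), Ms4a1 (0.0269) and Fgl2 (0.0243) were called. Siglecg (0.0552), Blk (0.0608), Scd1 (0.0547), Ctsh (0.0783), Napsa (0.0526), Cybb (0.158) and Pik3ap1 (0.177) were not.

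Over the B cell list, 14 of 18 genes were tested, and all 14 lay above 0. Called higher were 5, Igkc, Cd22, Ms4a1 and Siglecg among them, where 0.62% of all tested genes were called higher. The median was 3.49, with 1.23 without aged DP 5 and 1.04 without aged DP 1 and 5. DESeq2 called Igkc and gave no adjusted p to Cd22, Ms4a1 and Siglecg. The summed level was 1017, 1278, 1134, 978 and 2858 CPM in aged DP 1 to 5 and ranged from 697 to 846 CPM in young DP. In WT DP it ranged from 785 to 942 CPM, below all aged libraries. No aged library overlapped a young one. Most of the young level came from 2 members, Ighm, the IgM heavy chain (mean 518 CPM in young and 891 CPM in aged DP), and Ralgps2, a Ral exchange factor (209 and 211 CPM), neither of which was called. The part of these cells' RNA in other results was not tested.

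Of 12 tested genes of class II antigen presentation and dendritic cells 5 were called, all higher, where 0.62% of all tested genes were called higher. Class II MHC molecules are loaded with peptide in B cells, dendritic cells and thymic epithelium, and their promoters share a Y box with the letters GATTGG on either strand. H2-Aa and H2-Eb1 encode an alpha and a beta chain. The 100 bases before their RefSeq starts (GRCm38.p6) are printed as examples, with this motif in capitals. H2-Aa, H2-Ab1, H2-Eb1 and their escort Cd74 were all called higher.
H2-Aa, chr17:34287824-34287923, minus strand: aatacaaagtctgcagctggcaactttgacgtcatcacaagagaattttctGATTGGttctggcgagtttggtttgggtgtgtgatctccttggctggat
H2-Eb1, chr17:34305767-34305866, plus strand: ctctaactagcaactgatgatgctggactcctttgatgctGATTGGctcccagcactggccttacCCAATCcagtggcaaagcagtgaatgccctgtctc
In the 250 bases before the start, the letters were found in 7 of 11 promoters of the 9 tested list members that RefSeq names, or 63.6%, and in 14.6% of all 32851 mouse promoters. The members with the letters were H2-Aa, H2-Eb1, H2-DMa, H2-DMb1, H2-Oa, H2-Ob and Irf8, of which H2-Aa and H2-Eb1 were called. The called genes H2-Ab1, Cd74 and Siglech were not among them, for lack of the letters or of a RefSeq promoter of that name. A match of letters is a description and not a bound site.

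Cd74, the invariant chain that escorts class II molecules, was at 10.7, 11.8, 9.05, 8.76 and 14.6 CPM in young DP and at 74.5, 41.4, 28.9, 29.9 and 522 CPM in aged DP (log2 3.70, SE 0.74, adjusted p = 0.0247). H2-Eb1 ranged from 2.12 to 3.90 CPM in young DP and stood at 19.7, 12.8, 9.98, 8.96 and 146 CPM in aged DP (log2 3.64, adjusted p = 0.0247). Aged DP 5 was the highest in both, aged DP 1 the next, and the other 3 were still above all young libraries. H2-Aa (log2 3.39, adjusted p = 0.0247) and H2-Ab1 (2.90, 0.0171) rose likewise, as did Siglech (2.38, 0.0475), a marker of plasmacytoid dendritic cells. The calls of Cd74 (0.0605 to 0.0930), H2-Eb1 (0.0605 to 0.0930) and H2-Aa (0.0606 to 0.0927) ended without any 1 young library and that of H2-Ab1 without any of young DP 2 to 5 (0.0506 to 0.0682). Without aged DP 1 and 5 all 4 were called (Cd74 8.54e-05, H2-Eb1 0.000537, H2-Aa 0.000326, H2-Ab1 4.38e-05). Siglech lost its call without aged DP 1, aged DP 5 or any young library (0.0824 to 0.137), and without both aged libraries (0.310). The summed list was at 110.2 to 1183 CPM in aged DP and 52.95 to 68.97 CPM in young DP. WT DP, also of 10 weeks, was at 62.11 to 116.9 CPM and overlapped the aged libraries. The median of the list was 2.44, or 1.26 without aged DP 5.

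Other immune lists gave 1 call or none. Mpeg1, a pore-forming protein of macrophages, was the 1 called of 6 tested macrophage genes. It averaged 2.33 ± 0.924 CPM in the young and 12.5 ± 11.9 CPM in the aged group (log2 fold change 2.45, adjusted p = 0.0281), and lost its call without any 1 young library (0.0572 to 0.0930) and without aged DP 1 and 5 (0.0842). C1qb, C1qc and Adgre1, other macrophage genes, had too few counts to be tested. Of 22 genes of maturing and single positive T cells Cd2, an adhesion receptor, was the one called (log2 0.35, adjusted p = 0.0407), and its call ended without aged DP 1 (0.0883), aged DP 3 (0.0688), aged DP 4 (0.0746), aged DP 5 (0.0666), young DP 2 (0.0957), young DP 4 (0.110) or young DP 5 (0.0928). Of the 22 maturing T cell genes 19 lay above 0. At an unadjusted p under 0.05, 6 of them were higher and 0 lower, against 6.54% and 5.24% of all tested genes. Their median was 0.20, or -0.0002 without aged DP 5. The gamma delta list had 8 tested genes with Blk alone called. Neither edgeR nor DESeq2 called any of the tested NK (4), regulatory T cell (7), thymic epithelium (3) or fibroblast and endothelium (2) genes. At an unadjusted p under 0.05, 1 NK gene was higher and 1 thymic epithelium gene lay in each direction, where 6.54% of all tested genes were higher and 5.24% lower.

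**Figure D3:**
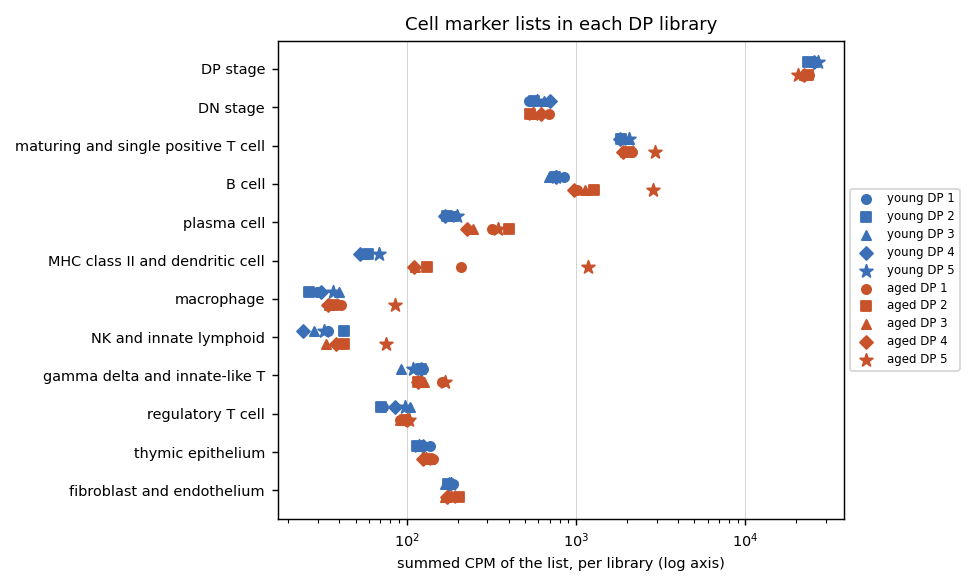
Summed CPM of 12 cell marker lists in each of the 10 libraries, on a log axis, with young DP in blue, aged DP in orange and a marker shape for each replicate number. WT DP is not drawn. The B cell list lies at 978 to 2858 CPM in aged DP and at 697 to 846 CPM in young DP, and aged DP 5 (star) is the highest library in that list, the class II list (1183 CPM) and the macrophage list (85.8 CPM).

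Most interferon-induced genes lay higher in aged DP, and few passed the test. Interferons act on a promoter element with the letters GAAA, any 2 letters and GAAA again, on either strand. Of 26 tested genes of the list, 24 lay above 0, and 20 had an unadjusted p under 0.05, all higher, where 6.54% of all tested genes were higher and 5.24% lower at that level. After adjustment over all genes edgeR called 1, Xaf1, and DESeq2 called 10, all higher. DESeq2 called more genes in general, 185 higher over all genes against 81 (0.62% of those tested) in edgeR. Xaf1, an interferon-induced inhibitor of XIAP, was at 5.85, 4.04, 8.49, 7.56 and 7.32 CPM in young DP and at 11.9, 13.6, 10.9, 10.9 and 18.9 CPM in aged DP (log2 1.00, SE 0.21, adjusted p = 0.0317). The groups did not overlap, and the call ended without aged DP 2 (0.0612), young DP 1 (0.0725), young DP 2 (0.0718), young DP 4 (0.0776) or young DP 5 (0.0704), and without aged DP 1 and 5 together (0.0966).

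Gbp3, a guanylate-binding protein, was at 3.88, 4.82, 3.72, 3.25 and 3.02 CPM in young DP and at 6.78, 7.40, 5.47, 6.54 and 16.3 CPM in aged DP (log2 1.20, adjusted p = 0.0597). Irgm1, an immunity-related GTPase, was at 17.5, 18.7, 19.4, 23.9 and 18.5 CPM in young DP and at 29.2, 29.7, 24.8, 23.8 and 46.2 CPM in aged DP (log2 0.66, adjusted p = 0.0794). Aged DP 5 was the highest in both genes, Irgm1 overlapped between the groups, and neither passed the test. Their promoters carry the motif shortly before the start and are printed as examples of the element, with the motif in capitals.
Gbp3, chr3:142559944-142560043, plus strand: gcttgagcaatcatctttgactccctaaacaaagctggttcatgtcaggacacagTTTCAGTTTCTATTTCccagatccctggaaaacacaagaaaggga
Irgm1, chr11:48871421-48871520, minus strand: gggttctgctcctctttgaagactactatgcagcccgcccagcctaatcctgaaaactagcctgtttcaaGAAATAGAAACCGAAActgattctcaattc
Each holds 2 overlapping matches. The letters occurred in 13 of 22 promoters of the 18 tested members that RefSeq names, or 59.1%, and in 2.98% of all 32851 promoters, in windows of 250 bases before the start (GRCm38.p6).

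The median of the interferon list was 0.61, with 0.35 without aged DP 5 and 0.36 without aged DP 1 and 5. The list summed to 866.5 to 1500 CPM in aged DP and 692 to 843.2 CPM in young DP. In WT DP the sum was 732.4 to 904.5 CPM, which overlapped the aged libraries. Irf1, a transcription factor that interferon gamma induces, averaged 43.1 ± 2.69 CPM in the young and 69.6 ± 20.6 CPM in the aged group (log2 fold change 0.71, adjusted p = 0.0320). Irgm2, another immunity-related GTPase, averaged 25.2 ± 3.97 CPM in the young and 44.9 ± 11.3 CPM in the aged group (log2 fold change 0.84, adjusted p = 0.0134), and Aim2, a sensor of cytosolic DNA, averaged 13.4 ± 2.33 CPM in the young and 24.8 ± 3.26 CPM in the aged group (log2 fold change 0.89, adjusted p = 0.00306). Tnfsf10, the death ligand TRAIL, averaged 16.6 ± 3.95 CPM in the young and 26.2 ± 1.25 CPM in the aged group (log2 fold change 0.66, adjusted p = 0.0281). All 4 were chosen after their values were seen and are not on the list. Irgm2 and Aim2 were called whichever library was left out. Irf1 lost its call without aged DP 1 or any young library (0.0507 to 0.0970), and Tnfsf10 without aged DP 1, aged DP 4 or any young library but young DP 4 (0.0534 to 0.0787), and without aged DP 1 and 5 together (0.104).

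Of 10 tested genes of class I antigen presentation edgeR called 1 and DESeq2 3, all higher. Over all genes edgeR called 81 higher (0.62% of those tested) and DESeq2 185. Psmb9, a subunit of the immunoproteasome, was at 36.7, 38.9, 38.8, 35.2 and 36.3 CPM in young DP and at 52.8, 50.03, 55.8, 51.9 and 94.1 CPM in aged DP (log2 0.73, SE 0.15, adjusted p = 0.0306). All aged libraries were above all young ones, with aged DP 5 the highest. The call ended without any 1 young library (0.0615 to 0.0968) and held without aged DP 1 and 5 (0.0133). All 10 genes lay above 0, with a median of 0.48, which was 0.28 without aged DP 5 and 0.27 without aged DP 1 and 5. The list summed to 1215 to 2607 CPM in aged DP, 1029 to 1085 CPM in young DP and 1078 to 1341 CPM in WT DP. Without aged DP 5, 4 were called, and without aged DP 1 and 5, 3. H2-K1, a classical class I heavy chain, was at 56.4, 54.95, 65.4, 57.99 and 59.9 CPM in young DP and at 112, 96.3, 95.7, 82.7 and 598 CPM in aged DP. No aged library overlapped a young one. It did not pass with all libraries (log2 1.77, adjusted p = 0.0926) and passed without aged DP 5 (0.000221), and its reads can be shared with other H2 genes.

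**Figure D4:**
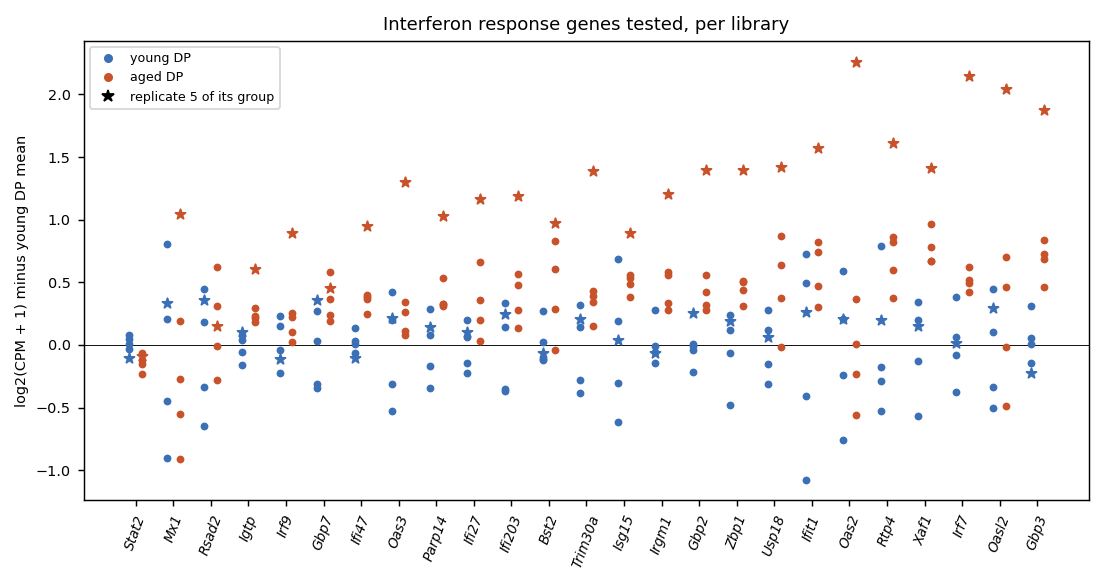
Tested interferon response genes (25 of 26), ordered by fold change, as log2(CPM + 1) minus the young DP mean. Young DP libraries are blue and aged DP libraries orange, and a star marks replicate 5 of each group. For Xaf1 all 5 aged libraries (10.9 to 18.9 CPM) lie above the young ones (4.04 to 8.49 CPM), and aged DP 5 is the highest of them.

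Genes of ferroptosis, the iron-dependent death by lipid peroxidation, gave few calls. Gpx4, the enzyme that reduces lipid peroxides, was at 76.7, 71.03, 62.7, 61.5 and 58.8 CPM in young DP and at 66.7, 56.5, 79.00, 66.9 and 59.2 CPM in aged DP (log2 0.00, SE 0.10, adjusted p = 0.994). Slc7a11, the cystine importer, was at 183, 227, 215, 269.6 and 281 CPM in young DP and at 211, 411, 284, 275 and 190.4 CPM in aged DP (log2 0.22, SE 0.17, adjusted p = 0.666). Both genes overlapped between the ages. Of 18 tested suppressors Scd1 was the one called, and of 13 tested drivers Cybb, both higher and both far highest in aged DP 5. The suppressor list had a median of 0.04 and the driver list of 0.16. Above 0 lay 13 suppressors and 11 drivers. At an unadjusted p under 0.05, 1 suppressor and 5 drivers were higher and 1 driver lower. Over all tested genes 6.54% were higher and 5.24% lower at that level. DESeq2 called 2 drivers, both higher, and 0 suppressors. Acsl4, which loads polyunsaturated fatty acids into lipids (log2 0.22, adjusted p = 0.254), Tfrc, the transferrin receptor (0.13, 0.617), and Hmox1, which frees iron from haem (0.83, 0.404), did not pass.

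Genes of proliferation lay slightly above 0 without a call in edgeR. Of 30 tested S phase genes 29 were above 0 (median 0.14), and of 25 tested genes of G2 and mitosis all 25 (median 0.18). The S phase median was 0.08 without young DP 5 and 0.21 without young DP 2. For G2 and mitosis, leaving out young DP 3 gave a median of 0.09, young DP 5 one of 0.12 and young DP 2 one of 0.27. In each list 5 were higher at an unadjusted p under 0.05, as were 6.54% of all tested genes. DESeq2 called 1 S phase gene and no gene of mitosis. The replication factor Gins2 (log2 0.64, adjusted p = 0.138) and the kinesin Kif20a (0.22, 0.259) had the smallest p. The median gene had an SD of 0.18 to 0.19 on the log2 scale among libraries of a group.

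Several lists of T cell signalling and of general cell functions had no member called by edgeR or by DESeq2. This held for 20 tested genes of proximal T cell receptor signalling (median -0.07), 20 of the selection response (0.05), 12 of the Notch pathway (0.00), 13 of the BCL2 family (-0.02) and 25 of oxidative phosphorylation (0.00). It also held for 22 ribosomal protein genes (0.07), 20 of cholesterol synthesis and uptake (0.20), 10 of the glucocorticoid response (0.08) and 15 of heat shock (-0.11). At an unadjusted p under 0.05 receptor signalling had 1 higher and 4 lower, the selection and glucocorticoid responses 1 higher each, the BCL2 family 2 higher and 1 lower, ribosomal proteins 2 higher, cholesterol 3 higher, heat shock 2 lower, and the other lists none. Over all tested genes the shares at that level were 6.54% higher and 5.24% lower. The smallest p in their lists belonged to Fyn, a Src family kinase (log2 -0.21, adjusted p = 0.205), Pdcd1, the receptor PD-1 (0.51, 0.237), Bmf, a death-promoting BCL2 relative (-0.51, 0.277), and the chaperone Hsph1 (-0.75, 0.205). Ptcra, the pre-T cell receptor alpha chain of the DN stage, averaged 26.9 ± 4.68 CPM in the young and 28.6 ± 8.43 CPM in the aged group (log2 fold change 0.10, adjusted p = 0.884).

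**Figure D5:**
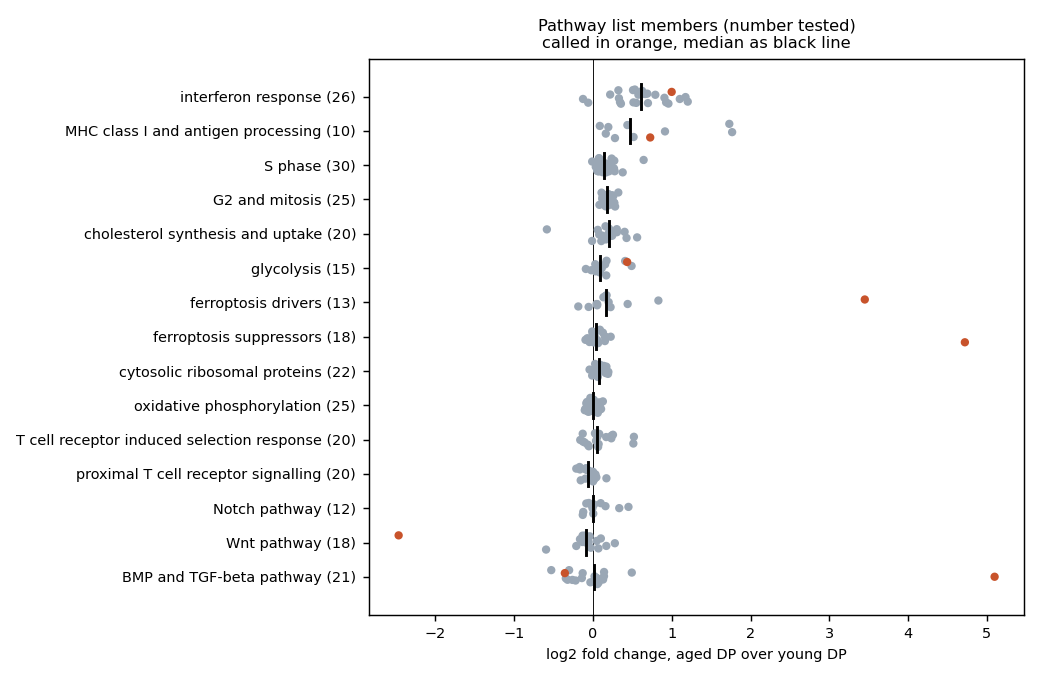
Log2 fold change of aged over young DP for each tested member of 15 pathway lists, with called genes in orange and the list median as a black line. The interferon list has a median of 0.61 with 1 called gene, and T cell receptor signalling has a median of -0.07 with none. The called points far to the right are Bmpr1a, Scd1 and Cybb.

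Of 11 tested DN stage markers Kit alone was called, and the adhesion receptor Cd44 (log2 0.75, adjusted p = 0.0787) and the interleukin 7 receptor gene Il7r (0.97, 0.270) did not pass. Dtx1, a Notch target of the DN stage, was at 22.5, 17.3, 24.1, 15.3 and 18.1 CPM in young DP and at 56.5, 13.4, 16.3, 15.9 and 30.2 CPM in aged DP (log2 0.45, adjusted p = 0.643). Aged DP 1 was the highest library, and the groups overlapped. Of 21 tested T lineage factors Ets2 alone was called (median 0.01). Neither edgeR nor DESeq2 called any of 10 tested chemokine and egress receptors (median 0.19), 13 immediate early genes (-0.06), 20 genes of DNA methylation and polycomb (0.03) or 13 clock genes (-0.02). At an unadjusted p under 0.05 these lists had 1 higher, 2 lower, 1 in each direction and none, against 6.54% higher and 5.24% lower over all tested genes. Jund, an AP-1 subunit (log2 -0.27, adjusted p = 0.245), Hdac2, a histone deacetylase (-0.15, 0.345), and Npas2, a clock factor (-0.59, 0.482), had the smallest p of the last 3 lists.

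The WT DP group gave a second 10-week reference. It is compared with the same aged libraries and differs from them in genotype as well as age, so its values stand beside the others and add no independent test. Of 13039 genes tested against WT DP, 17 (0.13%) passed, 13 with aged DP higher (0.0997%) and 4 with aged DP lower (0.0307%). Bmpr1a, Padi4, Gpc1, Igkc (log2 3.73, adjusted p = 0.00193) and Jchain (2.97, 0.00193) were among them. Leaving out WT DP 4 gave 43, WT DP 3 or WT DP 5 gave 10, and aged DP 2 or aged DP 4 gave 9.

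Several of the largest falls were not called against WT DP. Cdc42bpa averaged 18.9 CPM in young DP, 5.91 CPM in WT DP and 3.92 CPM in aged DP, and the test against WT DP gave log2 -0.59 (adjusted p = 0.337). Atp9a was at 7.94 CPM in WT DP (-0.90, 0.0770), Fzd10 at 3.91 CPM (-1.23, 0.153), Wscd1 at 5.02 CPM (-1.22, 0.155) and Hspg2 at 15.4 CPM (-0.35, 0.714). Adam12 was near the young level at 81.4 CPM in WT DP (-0.80, 0.0553). Fgfbp3, which is known to vary in copy number among C57BL/6J mice, averaged 1.14 ± 0.268 CPM in young DP, 1.09 ± 0.533 CPM in aged DP and 4.32 ± 2.78 CPM in WT DP. Whether the mice of the groups came from 1 colony was not tested.

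The age effect was also compared between DP and DN cells by an interaction term over the 4 wild-type groups. Of 14722 genes tested, 1 (0.00679%) was called, the noncoding RNA A630023P12Rik, which the naming rule leaves out and which was chosen after its values were seen (chromosome 5, 117427367 to 117444896, plus strand). In DP cells it was at 9.18, 10.5, 13.6, 11.2 and 11.8 CPM in young and 0.671, 1.57, 0.410, 0.640 and 0.994 CPM in aged libraries (log2 -3.70, adjusted p = 2.21e-06). All aged DP libraries were below all young ones. In DN cells the means were 2.06 CPM in young and 4.69 CPM in aged mice. The DP change minus the DN change was -4.91 on the log2 scale (adjusted p = 1.31e-05). WT DP averaged 2.36 CPM. The number of genes called was 7 when aged DN 1 was left out, 3 for young DN 3 and 2 for aged DN 2, young DN 2 or young DN 4. This fit treated all libraries as independent, though whether DP and DN libraries of the same number share a mouse is not stated. By correlation, 5 of 5 aged DP libraries were closest to the aged DN library of their number, and 3 of 5 young ones likewise. With a block for each age and number, 10 genes were called, 2 higher and 8 lower. DESeq2's test without a block called 85, 25 higher and 60 lower.

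The other named interaction genes were not called in the edgeR fit without that block. Layn, a hyaluronan receptor, went from 0.218 to 0.969 CPM in mean with age in DP and went from 1.24 to 0.457 CPM in DN (log2 difference of the changes 3.48, adjusted p = 0.0753). Arl4d, a small GTPase, went from 2.64 to 1.67 CPM in DP and from 2.68 to 6.49 CPM in DN (-1.95, 0.0687). Camk2n1 (-4.31, 0.0753), Prss12 (-5.02, 0.234), Gpr183 (-3.56, 0.246), Slc40a1 (4.32, 0.246), Vcam1 (3.37, 0.234) and Prep (0.76, 0.246) had the next smallest p in their direction. The B cell gene Cd22 had a mean of 26.7 CPM in young DN and 442 CPM in aged DN, above the DP groups, and the part of B cell RNA in the interaction was not tested.

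Aged libraries were about as variable as young ones for the median gene. The SD of log2 CPM among libraries had a median over genes of 0.182 in aged and 0.191 in young DP. A tail of genes differed. The SD was above 1 for 479 genes in aged DP and 127 in young DP, and for 161 in aged DP without aged DP 5.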

How the data were processed

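The deposited table gives whole-number read counts per gene and library, not normalized, as the file shows. Per the submitters' processing notes the tools included the aligner STAR 2.5.1, the counters HTSeq 2.0.3 and Subread, and Trim Galore 0.4. Bcl2fastq and DESeq2 are named too. Which of them made the counts and whether strand was used is not given in the sources used here, so antisense, overlapping and near-identical genes are uncertain. Genes carry C57BL/6NJ strain identifiers (41096 genes). Of those with an identifier in place of a name, 328 were named from the table's description. Groups were compared on counts in edgeR 4.0.16 (R 4.3.3) with TMM normalization, filterByExpr (minimum count 10, minimum total 15), quasi-likelihood tests and Benjamini-Hochberg adjustment over all genes tested, called under 0.05, 2-sided. Levels are CPM with TMM factors over 35 libraries. The 3 library measures used exact permutation tests over 252 assignments. Replicate pairs differed by more than sampling noise (chi-square per gene at least 6.37). Fits were tested on simulated data. Alternatives used DESeq2 1.42.0 and limma 3.58.1.

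Members and lists were chosen with earlier results of these data known. Named genes are the 15 largest rises and 15 largest falls among called genes without overlap and with at least 3 CPM in a group, the 10 most abundant called genes, up to 3 called members of a list in each direction (otherwise the smallest p), 14 genes always named, and 4 interaction genes in each direction, leaving out immunoglobulin and receptor segments, predicted genes and identifiers. Another 13 genes, and list members beyond the rule, were chosen after their values were seen. List medians and counts are descriptions without a test. Promoters are RefSeq's. A few genes that the rule names are not reported here.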

Additional observations from a re-analysis of the deposited data

Results flagged for a closer look

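In groups of 5 libraries, a value far from the nearest of the others was looked for in the named genes, the cell marker sums and the library measures. Chance flags about 1 in 20 groups where groups are independent and values normally distributed. Here some genes were named for their large rises, and marker sums contain some of the named genes. The number of flags is therefore a description and no test against chance. Of 222 groups, 27 were flagged, 20 of them for aged DP 5 as the highest of its group. These were Cd22 at 100.4 CPM, Siglecg at 29.1, Ms4a1 at 56.8, Scd1 at 88.1, Ctsh at 19.8, Napsa at 15.7, Cd74 at 522, H2-Eb1 at 146, Cybb at 35.5, H2-Ab1 at 142, H2-Aa at 124, Mpeg1 at 33.0, Psmb9 at 94.1, Irf1 at 106 and Irgm2 at 65.0 CPM. The summed CPM of marker lists stood apart in the same library for maturing and single positive T cells (2927), B cells (2858), class II and dendritic cells (1183), macrophages (85.8) and NK and innate lymphoid cells (75.3).

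The other flags were single values. They were Ighg2c in aged DP 2 (106 CPM), Igf2bp3 in aged DP 1 (7.53 CPM) and Rara in aged DP 4 (89.1 CPM) as the highest aged values. In young DP they were Scd1 in young DP 3 (1.61 CPM) and Rpl23 in young DP 1 (327 CPM) as the highest, and Kit in young DP 2 (4.20 CPM) and Ets2 in young DP 1 (1088 CPM) as the lowest. The noncoding RNA A630023P12Rik is listed because its age effect differed between DP and DN cells by -4.91 on the log2 scale in the interaction test.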

How the results depend on the processing

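Among aged against young DP calls (123, 81 higher and 42 lower), leaving out 1 library gave 58 to 136 calls, 35 to 82 higher and 23 to 54 lower. No filter on low counts gave 353 (268 and 85), DESeq2's test 317 (185 and 132), the fit over all 35 libraries 30 (21 and 9), the mean 10-week reference 190 (150 higher), and limma with library weights 72 lower. DESeq2 size factors gave 124, the stricter filter 90 and the replicate block 128. For the interaction (1 called) DESeq2's test gave 85 (25 and 60), the replicate block 10 (2 and 8), and leaving out 1 library 1 to 7 (0 to 1 higher and 1 to 7 lower). Against WT DP (17 called, 13 and 4) no filter gave 221 (187 and 34), DESeq2's test 308 (216 and 92), the replicate block 31 (24 and 7), and leaving out 1 library 9 to 43 (6 to 28 and 3 to 15). The cause was not tested.

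Replicate numbers were not taken to pair aged with young DP: deviations of same-numbered libraries correlated at -0.03 to 0.12, with 1 of 5 best with its own number. Aged DP and aged DN matched best by number in 5 of 5, at 0.10 to 0.27. Young DP and young DN did so in 3 of 5, at 0.03 to 0.21. The replicate block ended the calls of Rag1 (0.101), Scd1 (0.0673), Cybb (0.0696), Cacng4 (0.0742), Uspl1 (0.0606), Prr12 (0.0795) and Siglech (0.0834).

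Dtx1, at 0.45 with all libraries, and several values near 0 changed sign. Without aged DP 1 and 5 these were Dtx1 (-0.37), Cd4 (0.028), Ptcra (-0.052) and Gpx4 (0.021), with library weights Gpx4 (0.090), and with the mean 10-week reference Ptcra (-0.024). With 1 library left out Dtx1 ranged from -0.028 to 0.62, Cd4 from -0.043 to 0.028, Ptcra from -0.083 to 0.19, Gpx4 from -0.078 to 0.054 and, against WT DP, Cttn from -0.059 to 0.19 and Igf2bp3 from -0.17 to 0.22.

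List medians moved beyond 1 SD without aged DP 1 and 5 for maturing T cells (-0.026), B cells (1.04), class II (0.96), macrophages (-0.28), NK cells (-0.18), gamma delta T cells (-0.18), BMP and TGF-beta (-0.064), T lineage factors (-0.065) and chemokine receptors (0.018). With 1 library left out they ranged from 1.23 to 3.77 for B cells, -0.060 to 0.023 for BMP and TGF-beta, -0.092 to 0.079 for substrain genes, 0.086 to 0.27 for G2 and mitosis, -0.11 to -0.047 for Wnt, -0.052 to 0.025 for immediate early genes and -0.0002 to 0.29 for maturing T cells. The difference in the share of the 50 most abundant genes ranged from -0.552 to -0.410 percentage points. Counts near 1 CPM limit the precision of low genes.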
